A study of Mus musculus with 5 samples.

Results

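Lymphatic endothelial cells of the psoriasis-like lesions of K5. Pp6fl/fl mice were described from whole skin. They were chosen by their counts of lymphatic genes, and 93 cells of the lesional library met the rule, of 2652 cells kept there and 11942 in all libraries. The unit was the unique molecular identifier (UMI), which marks 1 captured transcript molecule. A kept barcode had at least 200 genes and under 20% mitochondrial UMIs. A lymphatic endothelial cell then had at least 4 UMIs over Prox1, Lyve1, Mmrn1, Flt4 and Ccl21a, at least 1 over Pecam1, Cdh5 and Prox1, no Ptprc and at most 1 over C1qa, C1qb and C1qc. The blood endothelial cells set against them were 175 cells of the same library with at least 4 UMIs over Pecam1, Cdh5, Kdr and Flt1 and at most 2 over Prox1, Lyve1 and Ccl21a. The 2 cells that met both rules were counted as lymphatic.

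Single cells of mouse skin were counted in 5 droplet libraries, 1 per group, all on the C57BL/6 strain. The lesional whole skin came from untreated K5. Pp6fl/fl mice of 18 weeks and the non-lesional epidermis from untreated K5. Pp6fl/fl mice of 10 weeks. The imiquimod dermis came from wild-type mice of 10 weeks that received the drug on the ear for 5 days, and untreated dermis and untreated epidermis came from wild-type mice of 10 weeks. The genotype names the K5 (keratin 5) promoter, active in basal keratinocytes, and a floxed gene for the catalytic subunit of protein phosphatase 6. In the endothelium that gene, Ppp6c, stood at 60.8 CPM (UMIs scaled to 1e+06 per group) in lymphatic and 55.7 CPM in blood endothelial cells. The labels do not name the deleted part of it, so these levels check nothing about the genotype. Nor do they give the body site of the K5. Pp6fl/fl and untreated mice, or how many mice were pooled.

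Lymphatic endothelium lines the blind-ended capillaries that take up fluid and cells from the dermis, and the collecting vessels with valves that carry lymph away. Its identity is set by the transcription factor PROX1, and its growth depends largely on VEGFR3, the product of Flt4, and the ligands VEGF-C and VEGF-D. The capillaries secrete CCL21, the chemokine that guides CCR7-bearing dendritic cells and T cells into the vessel.

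The members were found almost wholly in 1 library. The 93 cells were 3.51% of the kept lesional cells (95% exact binomial interval 2.84 to 4.28). The non-lesional epidermis had 0 of 2873 cells, for which the same interval reaches 0.128%. The imiquimod dermis had 2 of 4991 cells (0.0401%, 0.00485 to 0.145), the untreated dermis 3 of 521 (0.576%, 0.119 to 1.67) and the untreated epidermis 1 of 905 (0.11%, 0.0028 to 0.614). Enzyme digestion and sorting of live cells came before these shares, and the lesional library held epidermis and dermis together. With 1 library per group, no difference between libraries has a replicate check, and all intervals cover counting error only.

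The rule left out most cells rich in Ccl21a in the imiquimod dermis. There, 13 kept cells had at least 50 Ccl21a UMIs, and 12 of them lay outside the rule, 11 for more than 1 C1q UMI and 4 for Ptprc. More than 1 C1q UMI was also seen in T cells, in 0.796% of those of the lesional skin, 50.8% of those of the imiquimod dermis and 22.1% of those of the untreated dermis. The share of members in imiquimod dermis is therefore not comparable with that in lesional skin. Of lesional cells, 57 had at least 50 Ccl21a UMIs. The 3 members of the untreated dermis had 38, 122 and 293 Ccl21a UMIs, with Mmrn1 at 4, 3 and 11 UMIs and Flt4 at 1 UMI in each, in cells of 1160, 2761 and 5249 UMIs.

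The lesional library held 34376558 UMIs in 3443 barcodes, the second highest total of libraries with 3020790 to 41258087 UMIs. It shared 0 barcodes with each of the other libraries. The 93 members held 1349642 UMIs, with a lowest, median and highest cell at 1313, 12383 and 66351. The blood endothelial cells held 2386417 UMIs, with 1236, 12816 and 43771. Depth was thus close in both groups. The library held cells with Xist and cells with Y-linked UMIs, so it came from more than 1 mouse. Of the members, 29 had Xist alone, 44 Y-linked UMIs alone, 1 both and 19 neither.

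The genes that chose the members are given as a description. Prox1 (chr1:190118035-190170714, minus strand, GRCm38) had a lowest, median and highest count of 0, 4 and 39 UMIs per member and was seen in 80 of 93 members, against 3 of 175 blood endothelial cells. Lyve1 (chr7:110850607-110863239, minus), a hyaluronan receptor, had 0, 15 and 151 UMIs in the members. Mmrn1 (chr6:60924976-60989378, plus), which encodes multimerin 1, had 0, 21 and 126. Each of these was at no more than 2 UMIs in a blood endothelial cell. Flt4 (chr11:49609263-49652739, plus) had 0, 8 and 77 UMIs in members and at most 3 in a blood endothelial cell. Ccl21a (chr4:42772860-42773993, minus) had 0, 96 and 3504 UMIs in members, 72 of which held it, and at most 1 in a blood endothelial cell. Its summed level was 17160 CPM in lymphatic and 1.68 CPM in blood endothelium. The genome holds near-identical copies of Ccl21a, of which Gm21541 had 60 UMIs and Ccl21c 2 UMIs in the members, so the level is uncertain.

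The shared endothelial genes of the rules were present in both groups. Pecam1, an adhesion molecule of endothelial junctions, was at 780 CPM in lymphatic and 1162 CPM in blood endothelium. Cdh5, which encodes VE-cadherin, was at 557 CPM in lymphatic and 642 CPM in blood endothelium. Kdr, encoding VEGFR2, was at 420 CPM in lymphatic and 240 CPM in blood endothelium. At the threshold of the lymphatic sum, 4 cells that met the other limits had 3 UMIs and lay just outside, while 1 cell with 4 UMIs and 3 cells with 5 lay just inside. The median member had 187.

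A part of the members did not match the label. Flt1, encoding VEGFR1, a receptor of blood endothelium, was found in 10 members at 3 to 33 UMIs, and in 0 of the other 83. All 10 held Lyve1, at 4 to 35 UMIs, and 0 held Mmrn1 or Reln. Prox1 was seen in 2 of them, at 1 UMI each, and Vwf, encoding von Willebrand factor, in 9. All 10 had Y-linked UMIs and no Xist. Their sum of lymphatic genes was at most 39 UMIs, against a median of 208 in the 83 members without Flt1, although they were deeper, with a median of 26520 UMIs against 11407. All of the 83 cells had Prox1, Mmrn1 or Reln, 82 had at least 2 of them, and 4 had Vwf. Values are given for all 93 members and, where it matters, for the 83 without Flt1, a subset taken after the values were seen.

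**Figure D1:**
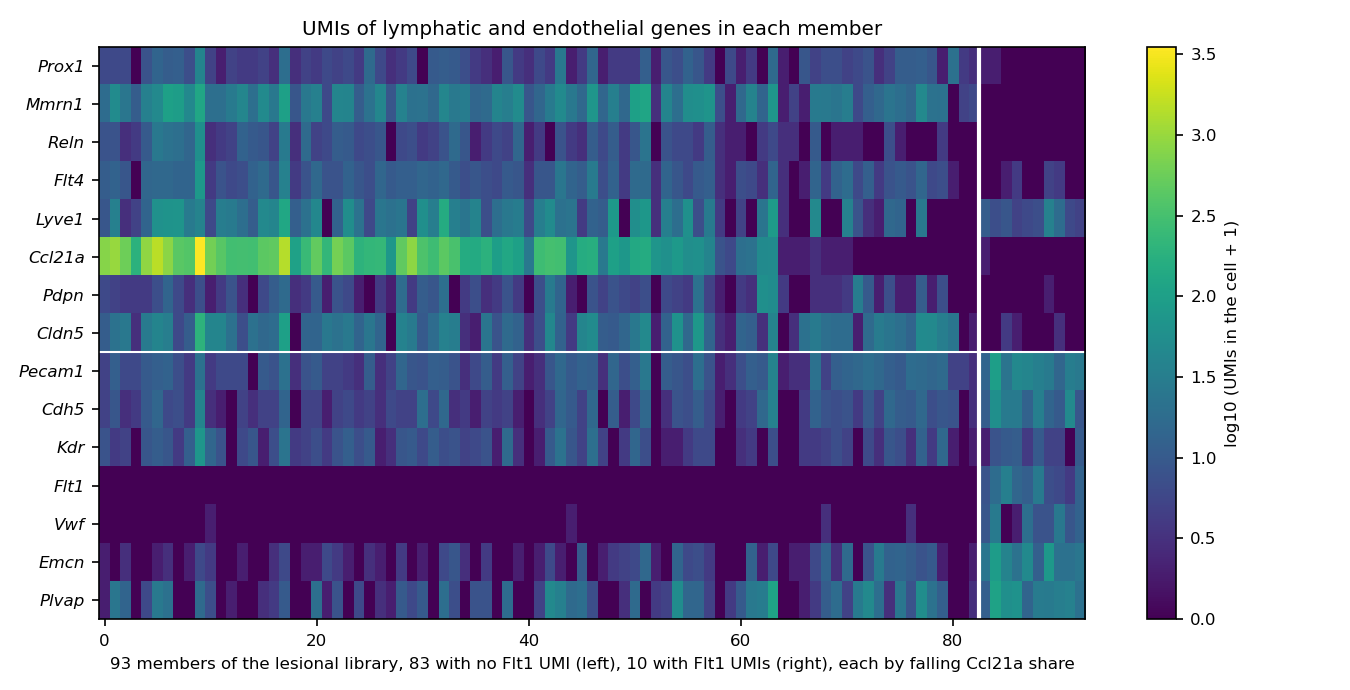
UMIs of lymphatic genes (above the white line) and endothelial genes (below it) in each of the 93 members of lesional skin, as log10 of UMIs + 1, one column per cell. The 83 members without Flt1 stand left of the vertical line and the 10 with Flt1 right of it, each by falling Ccl21a share; the 10 lack Mmrn1 and Reln and mostly hold Vwf.

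Promoter windows of 4 genes that marked the members are shown, since the summed level of each was higher in the members than in blood endothelium. Each is the run of 250 bases before the RefSeq start, from 5′ to 3′ on the gene's strand, in GRCm38.p6. Ccl21a lies at chr4:42773992-42774241, Reln at chr5:22344706-22344955, Pdpn at chr4:143299565-143299814 and Stab1 at chr14:31168642-31168891, all on the minus strand. Capitals mark a match to 1 of 3 short motifs of factor families known in lymphatic endothelium, searched on both strands, namely AACAAT (SOX), TGCTGA (MAF) and TGTTTA (FOX).
Ccl21a: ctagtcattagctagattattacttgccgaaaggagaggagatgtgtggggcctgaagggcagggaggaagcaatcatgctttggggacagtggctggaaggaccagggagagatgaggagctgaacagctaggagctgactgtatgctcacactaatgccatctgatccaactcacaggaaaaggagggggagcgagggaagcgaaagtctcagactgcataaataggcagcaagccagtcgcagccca
Reln: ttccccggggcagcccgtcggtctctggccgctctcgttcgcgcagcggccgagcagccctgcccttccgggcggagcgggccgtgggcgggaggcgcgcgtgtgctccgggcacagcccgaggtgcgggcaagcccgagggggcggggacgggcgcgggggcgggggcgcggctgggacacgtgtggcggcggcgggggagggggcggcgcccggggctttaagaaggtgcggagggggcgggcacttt
Pdpn: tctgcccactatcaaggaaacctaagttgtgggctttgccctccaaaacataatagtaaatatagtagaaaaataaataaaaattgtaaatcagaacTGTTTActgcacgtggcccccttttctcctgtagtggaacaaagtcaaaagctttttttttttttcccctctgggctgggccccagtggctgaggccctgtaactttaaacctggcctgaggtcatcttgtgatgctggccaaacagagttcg
Stab1: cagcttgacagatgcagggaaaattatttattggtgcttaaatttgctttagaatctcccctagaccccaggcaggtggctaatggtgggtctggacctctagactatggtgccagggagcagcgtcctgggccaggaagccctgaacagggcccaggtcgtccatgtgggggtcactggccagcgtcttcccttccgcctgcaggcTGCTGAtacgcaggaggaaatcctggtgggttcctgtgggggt
The Reln window was 80% G and C, against a median of 52.4% over the 32851 RefSeq promoter windows, and the Pdpn window 43.2%. The Pdpn window held a FOX match that begins 153 bases before the start, and the Stab1 window a MAF match 43 bases before it. These letters were not in the windows of Ccl21a and Reln. The motifs were common in all windows, at 9.42% for SOX, 16.1% for MAF and 12.0% for FOX. Among the 358 windows of genes higher in lymphatic endothelium the shares were 6.70%, 14.8% and 11.7%, and among the 442 windows of genes lower there 5.20%, 17.9% and 10.4%. The 358 windows belong to 259 genes and the 442 to 346, so a gene with several windows counts more than once. Not every called gene had a window, and the genes of the rules were not left out of these sets. None of the 3 motifs stood at a higher share in the windows of the higher genes than in all windows. A match of 6 letters is a description and not a site.

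UMIs of each gene were summed over the cells of a group and compared as CPM. To be measured, a gene needed 10 or more UMIs over both groups and 10 CPM or more in either. Calls of higher or lower needed an exact 95% interval of the ratio that lay wholly beyond 2-fold. Of 9117 measured genes outside the rule, 344 (3.77%) were higher in lymphatic than in blood endothelium and 482 (5.29%) were lower. The median log2 ratio over all of them, with 5 CPM added to each level, was 0.07. Because the same cells chosen by their lymphatic genes were compared with those chosen for lacking them, these counts describe the gated cells and are no test.

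The genes of lymphatic identity that the rule did not use were mostly higher in the members by their summed levels. Of 29 measured genes of that list, 18 were higher in lymphatic endothelium and 0 lower, with a median log2 ratio of 2.05, against 0.07 for all genes. Reln (chr5:21884454-22344702, minus), which encodes the secreted glycoprotein reelin, had a lowest, median and highest count of 0, 3 and 57 UMIs in the members. It was seen in 69 of 93 members, at 382 CPM, and in 1 of 175 blood endothelial cells, at 0.419 CPM, a ratio of 912-fold (163 to 36106). In cells of the same library classed as Schwann cell-like by marker genes, Reln was at 288 CPM, in 16 of 27 cells. Pdpn (chr4:143267431-143299564, minus), encoding podoplanin, the ligand of a platelet receptor, was at 385 CPM in lymphatic and 67.5 CPM in blood endothelium (5.70-fold, 4.77 to 6.85). Stab1 (chr14:31139013-31168641, minus), a scavenger receptor gene, was at 586 and 84.6 CPM in lymphatic and blood endothelium (6.92-fold, 5.93 to 8.12).

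Transcription factor genes gave a narrower difference, with 5 of 42 higher and 4 lower (median log2 ratio 0.15). Maf, a factor of lymphatic and macrophage differentiation, was at 521 CPM in 78 members and at 33.9 CPM in blood endothelium (15.3-fold, 12.2 to 19.6). Tbx1, a T-box factor needed for lymphatic growth, was at 159 and 5.03 CPM in lymphatic and blood endothelium (31.5-fold, 17.7 to 62.0). Foxc2, a factor of collecting vessels and valves, was at 60.0 CPM in lymphatic and 10.5 CPM in blood endothelium (5.73-fold, 3.62 to 9.37). Foxp2 was at 55.6 CPM in 28 members, against 1 UMI in blood endothelium (133-fold, 23.1 to 5307). Sox18 and Nr2f2, factors upstream of Prox1, were not beyond 2-fold, with Sox18 at 333 CPM in lymphatic and 365 CPM in blood endothelium and Nr2f2 at 508 and 285 CPM.

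The 15 highest genes were taken by a naming rule. It asked for at least 50 CPM, a ratio beyond 2-fold, and no other cell class with over 10 times the level. Fgl2, a fibrinogen-like gene, had 0, 11 and 83 UMIs as the lowest, median and highest member and was at 1175 CPM in lymphatic and 51.1 CPM in blood endothelium (22.99-fold, 19.1 to 27.9). The cell polarity gene Pard6g was seen in 76 members at 365 CPM and in 6 blood endothelial cells at 5.45 CPM (67.1-fold, 38.8 to 127). Sema3d, which encodes a secreted semaphorin, was at 190 CPM in 63 members and at 1.68 CPM in 1 blood endothelial cell (113-fold, 43.7 to 419). Dtx1, a ubiquitin ligase gene of the Notch pathway, was at 136 CPM in 55 members and at 0 in blood endothelium, at least 108-fold higher against 3 counts over the group. Sh3gl3 was likewise at 119 CPM in 56 members and 0 in blood endothelium, at least 94.9-fold higher. Fxyd6, encoding a regulator of the sodium pump, was the most widely seen of these, in 80 members (545 against 15.1 CPM). Slc45a3, Nsg1, Col23a1, Ackr2, Tbx1 and Reln were also among the 15. The other 3, Coch, Cxcl13 and Cck, drew 98.4%, 98.6% and 100% of their UMIs from 1 member and so rest mainly on 1 cell each.

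**Figure D2:**
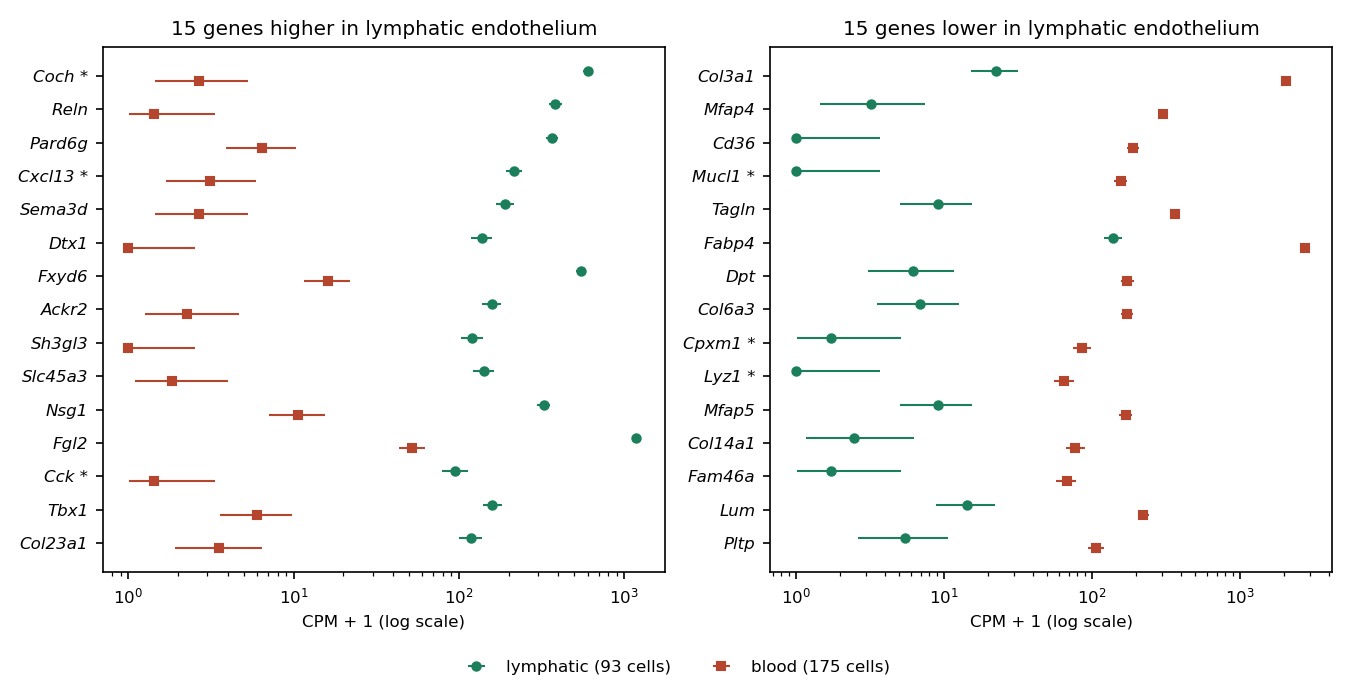
Levels as CPM + 1 (log axis) of the 15 highest and 15 lowest genes by the naming rule in the 93 lymphatic (green circles) and 175 blood (red squares) endothelial cells; lines are exact 95% Poisson intervals. An asterisk marks a gene with over 50% of the UMIs of its higher group in 1 cell; apart from Fabp4, the lower genes stood under 25 CPM in lymphatic endothelium.

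Of 42 genes of blood endothelial identity, 18 were lower in lymphatic endothelium and 1, Cldn5, was higher (median log2 ratio −1.0). Ly6c1, Ackr1 and Aplnr had the lowest ratios of the 18. Fabp4, Cd36 and Pltp, described next, are not among the 18. Fabp4, a fatty acid binding protein of capillaries, had 0, 0 and 35 UMIs as the lowest, median and highest member and 0, 5 and 365 in blood endothelial cells. It was at 139 CPM in lymphatic and 2752 CPM in blood endothelium (19.9-fold lower, 17.2 to 23.1). Cd36, a fatty acid translocase gene, was at 0 in lymphatic and 189 CPM in blood endothelium, at least 85.2-fold lower. Pltp, encoding the phospholipid transfer protein, was at 4.45 CPM in lymphatic and 106 CPM in blood endothelium (23.8-fold lower, 10.8 to 65.3). With Scarb1, Fabp5 and Lrp1, Cd36 and Fabp4 made up the 5 lower genes of the 27 measured for lipid handling, of which 0 were higher (median log2 ratio −0.34).

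Levels of vascular markers depended on the 10 members with Flt1. Vwf was at 88.2 CPM in all members and 5.53 CPM in the 83 without Flt1, against 527 CPM in blood endothelium. Ackr1, a chemokine receptor of venules, was at 71.9 CPM in all members and 1.84 CPM in the 83, against 606 CPM in blood endothelium. Sox17, an arterial factor, was at 43.0 CPM in all members and 0.922 CPM in the 83, against 172 CPM in blood endothelium. Selp, encoding the adhesion molecule P-selectin, was at 985 CPM in all members and 211 CPM in the 83, against 2403 CPM in blood endothelium. Among the 83, and with blood endothelium held to the same Ptprc and C1q limits (158 cells), 26 of the 42 blood identity genes were lower (median log2 ratio −1.57). Over all genes of that comparison, 428 of 9150 (4.68%) were higher and 525 (5.74%) lower. Leaving out the Flt1 members alone gave 432 of 9267 higher (4.66%) and 594 lower (6.41%), and limiting the blood gate alone 343 of 9003 higher (3.81%) and 406 lower (4.51%).

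Most of the other lower genes named by the rule mark fibroblasts, pericytes or glands, and these markers moved with the comparison. They were Col3a1, Mfap4, Dpt, Col6a3, Cpxm1, Mfap5, Col14a1, Lum, Tagln and Mucl1. Lyz1, also among the lower genes, had its highest level of the other classes in macrophage and monocyte-like cells, at 255 CPM. In blood endothelium 81.0% of its UMIs lay in 1 cell, and it was not measured with the Ptprc and C1q limits. The blood endothelial gate had no limit on Ptprc, and 17 of its cells held it, against 0 members. Collagens gave at least 0.5% of UMIs in 10 blood endothelial cells and in 2 members. The 6 fibroblast markers summed to 2803 CPM in lymphatic and 6693 CPM in blood endothelium. Dcn went the other way from that sum, at 2440 CPM in lymphatic and 1300 CPM in blood endothelium (1.88-fold, 1.79 to 1.97), and at 2970 CPM in the 83 members without Flt1 it was called higher (2.28-fold, 2.17 to 2.40). The 6 pericyte and smooth muscle markers summed to 22.97 CPM in lymphatic and 944 CPM in blood endothelium, with Myh11 at 0 in the members. The 6 keratinocyte markers summed to 59.3 CPM in lymphatic and 349 CPM in blood endothelium. With cells of other types limited in both gates (91 lymphatic and 140 blood cells), 394 of 8786 genes (4.48%) were higher and 312 (3.55%) lower. Col3a1 and Dpt were then no longer called, with Col3a1 at 12.3 CPM in lymphatic and 23.5 CPM in blood endothelium and Dpt at 3.07 CPM in lymphatic and 12.6 CPM in blood endothelium. Tagln was still lower, at 3.07 CPM in lymphatic and 287 CPM in blood endothelium, and so was Col6a3, at 1.53 CPM in lymphatic and 28.7 CPM in blood endothelium. Of the 4 pericyte genes then measured, 3 were lower, namely Tagln, Rgs5 and Pdgfrb. Mfap4, Mucl1, Cpxm1, Lyz1, Mfap5, Col14a1 and Lum were no longer measured.

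MHC class II genes also moved with the Ptprc limit. Of 9 measured, 8 were lower in lymphatic endothelium, with Cd74, the invariant chain, at 8.15 CPM in lymphatic and 1652 CPM in blood endothelium, where 28 cells held it. When blood endothelium was held to the Ptprc and C1q limits, 1 of the genes remained measured and 0 were called. MHC class I genes showed no such gap, with 0 of 16 called (median log2 ratio −0.29).

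Genes of initial capillaries and genes of collecting vessels were both found in the members. Of 9 measured capillary genes, 6 were higher in lymphatic endothelium and 0 lower (median log2 ratio 2.05), namely Reln, Stab1, Pdpn, Piezo2, Ptx3 and Mrc1. Of 18 measured collector and valve genes, 7 were higher and 0 lower (median 0.18), namely Tbx1, Foxp2, Foxc2, Itga9, Emilin1, Cldn11 and Celsr1. Itga9, an integrin chain of the valve leaflet, was at 100 CPM in lymphatic and 23.5 CPM in blood endothelium (4.26-fold, 3.10 to 5.93). Cldn11, a claudin gene, was at 16.3 CPM in 13 members and 1.26 CPM in blood endothelium. Nfatc1, a factor of valve formation, was at 117 CPM in lymphatic and 45.7 CPM in blood endothelium, with an interval that reached under 2-fold (2.56-fold, 1.995 to 3.30).

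Junction genes were led by Cldn5 (chr16:18776847-18778262, plus), which encodes the tight junction protein claudin 5. It was the 1 gene of the blood identity list that was higher in lymphatic endothelium. It had 0, 14 and 192 UMIs as the lowest, median and highest member and was seen in 82 members at 1372 CPM, against 29 blood endothelial cells at 159 CPM (8.62-fold, 7.71 to 9.65). Jup, encoding plakoglobin, was at 143 CPM in lymphatic and 22.6 CPM in blood endothelium (6.32-fold, 4.65 to 8.71). Of 28 junction genes, 5 were higher and 2, Jam2 and Esam, were lower (median log2 ratio 0.17).

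The growth factor pathways were read from receptor to ligand. Besides Flt4 and Kdr, which chose the cells, Nrp2, the co-receptor of VEGFR3, was at 311 CPM in lymphatic and 149 CPM in blood endothelium (2.09-fold, 1.81 to 2.42), and its interval reached under 2-fold. In the 83 members without Flt1 it was at 372 CPM and called higher (2.498-fold, 2.16 to 2.89). Nrp1, the co-receptor of VEGFR2, was at 64.5 CPM in lymphatic and 246 CPM in blood endothelium (3.81-fold lower, 3.04 to 4.83), and at 1.84 CPM in the 83 members. The ligand Pgf was at 74.8 CPM in lymphatic and 9.22 CPM in blood endothelium (8.12-fold, 5.08 to 13.5). Vegfc was nearly absent from lymphatic endothelium, at 0.741 CPM, against 19.3 CPM in blood endothelium. In the same library Vegfc was at 25.1 CPM and Vegfd at 38.03 CPM in fibroblast-like cells. Of the 12 measured genes of the VEGF list, 2 were higher and 3 lower (median log2 ratio 0.23).

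Of the TIE receptors, Tie1 was at 265 CPM in lymphatic and 201 CPM in blood endothelium and within 2-fold. Tek was at 59.3 CPM in lymphatic and 144 CPM in blood endothelium (2.42-fold lower, 1.90 to 3.13), with an interval that reached under 2-fold. It was called lower in the 83 members without Flt1, at 48.9 CPM (2.94-fold lower, 2.20 to 4.01), and also with blood endothelium held to the Ptprc and C1q limits (2.60-fold lower, 2.03 to 3.36) and with other cell types limited in both gates (2.96-fold lower, 2.31 to 3.84). The ligand Angpt2 was at 153 CPM in lymphatic and 67.5 CPM in blood endothelium and was not called (2.27-fold, 1.84 to 2.81). Angpt1 was at 1.48 CPM in lymphatic endothelium, and at 35.8 CPM in pericyte-like and 28.1 CPM in fibroblast-like cells. In the TGF-beta pathway, 3 of 21 genes were higher and 2 lower (median log2 ratio −0.36), with the ligand gene Tgfb3 at 40.8 CPM in lymphatic and 5.45 CPM in blood endothelium (7.48-fold, 4.03 to 14.9). The Notch target Hes1 was at 373 CPM in lymphatic and 114 CPM in blood endothelium (3.29-fold, 2.83 to 3.83), as the 1 higher gene of the 15 measured on the Notch list, which does not hold Dtx1, with 2 lower.

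Among chemokines and chemokine receptors, 4 of 14 genes were higher and 3 lower (median log2 ratio −0.28). The 4 were Ackr2, Ackr3, Ccl2 and Cxcl13, and 1 cell held 98.6% of the lymphatic Cxcl13 UMIs. Ackr2, a receptor that binds and degrades inflammatory CC chemokines, had 0, 1 and 16 UMIs as the lowest, median and highest member. It was at 157 CPM in 54 members, against 1.26 CPM in 1 blood endothelial cell (125-fold, 42.2 to 611). Ackr3, which scavenges CXCL12, was at 301 CPM in lymphatic and 53.6 CPM in blood endothelium (5.61-fold, 4.59 to 6.90). Its ligand gene Cxcl12 was at 91.1 CPM in lymphatic and 375 CPM in blood endothelium (4.11-fold lower, 3.40 to 5.00), with 66.7% of the lymphatic UMIs in 1 cell. Ccl2, which draws monocytes, was at 943 CPM in 25 members and 236 CPM in 20 blood endothelial cells (4.01-fold, 3.62 to 4.43).

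Of 24 cytokine and survival factor genes, 2 were higher and 6 lower (median log2 ratio −0.75). Il7, the survival factor of lymphocytes, was at 58.5 CPM in 46 members, with at most 4 UMIs in a cell, against 2.10 CPM in 5 blood endothelial cells (27.9-fold, 11.5 to 88.4). Kitl, encoding stem cell factor, was at 16.3 CPM in lymphatic and 111 CPM in blood endothelium (6.84-fold lower, 4.42 to 11.1). Il6 was at 29.6 CPM in lymphatic and 129 CPM in blood endothelium (4.35-fold lower, 3.13 to 6.22). Sphk1, which makes sphingosine 1-phosphate, the lipid that lymphocytes follow, was at 20.005 CPM in lymphatic and 3.77 CPM in blood endothelium (5.30-fold, 2.42 to 12.8). The exporter gene Spns2 was at 225 and 160 CPM in lymphatic and blood endothelium and within 2-fold. Sema3a, a semaphorin that acts on dendritic cells entering lymphatics, was at 257 CPM in 72 members and 18.4 CPM in 17 blood endothelial cells (13.9-fold, 10.2 to 19.5).

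The acute-phase genes Lbp, Lcn2 and Serpina3n were higher in lymphatic than in blood endothelium, while Saa3 was at 15.6 CPM in lymphatic and 17.6 CPM in blood endothelium. Lbp, encoding the lipopolysaccharide binding protein, had 0, 7 and 167 UMIs as the lowest, median and highest member. It was at 1765 CPM in 82 members and 254 CPM in 78 blood endothelial cells (6.95-fold, 6.35 to 7.61). Lcn2, encoding lipocalin 2, was at 1568 CPM in lymphatic and 155 CPM in blood endothelium (10.1-fold, 9.03 to 11.3). Serpina3n was at 1048 CPM in lymphatic and 100.2 CPM in blood endothelium (10.5-fold, 9.11 to 12.0). The list of NF-kB targets as a whole was not shifted, with 3 of 28 higher and 2 lower (median log2 ratio −0.25). Of 32 interferon-stimulated genes, 1 was higher and 1 lower (median −0.28), but the count depended on the members with Flt1. In the 83 members without Flt1, 2 of 31 were higher and 5 lower (median −0.53), namely Oasl2, Gbp4, Oasl1, Rsad2 and Ifit3. Of 14 heat shock genes, 0 were called.

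**Figure D3:**
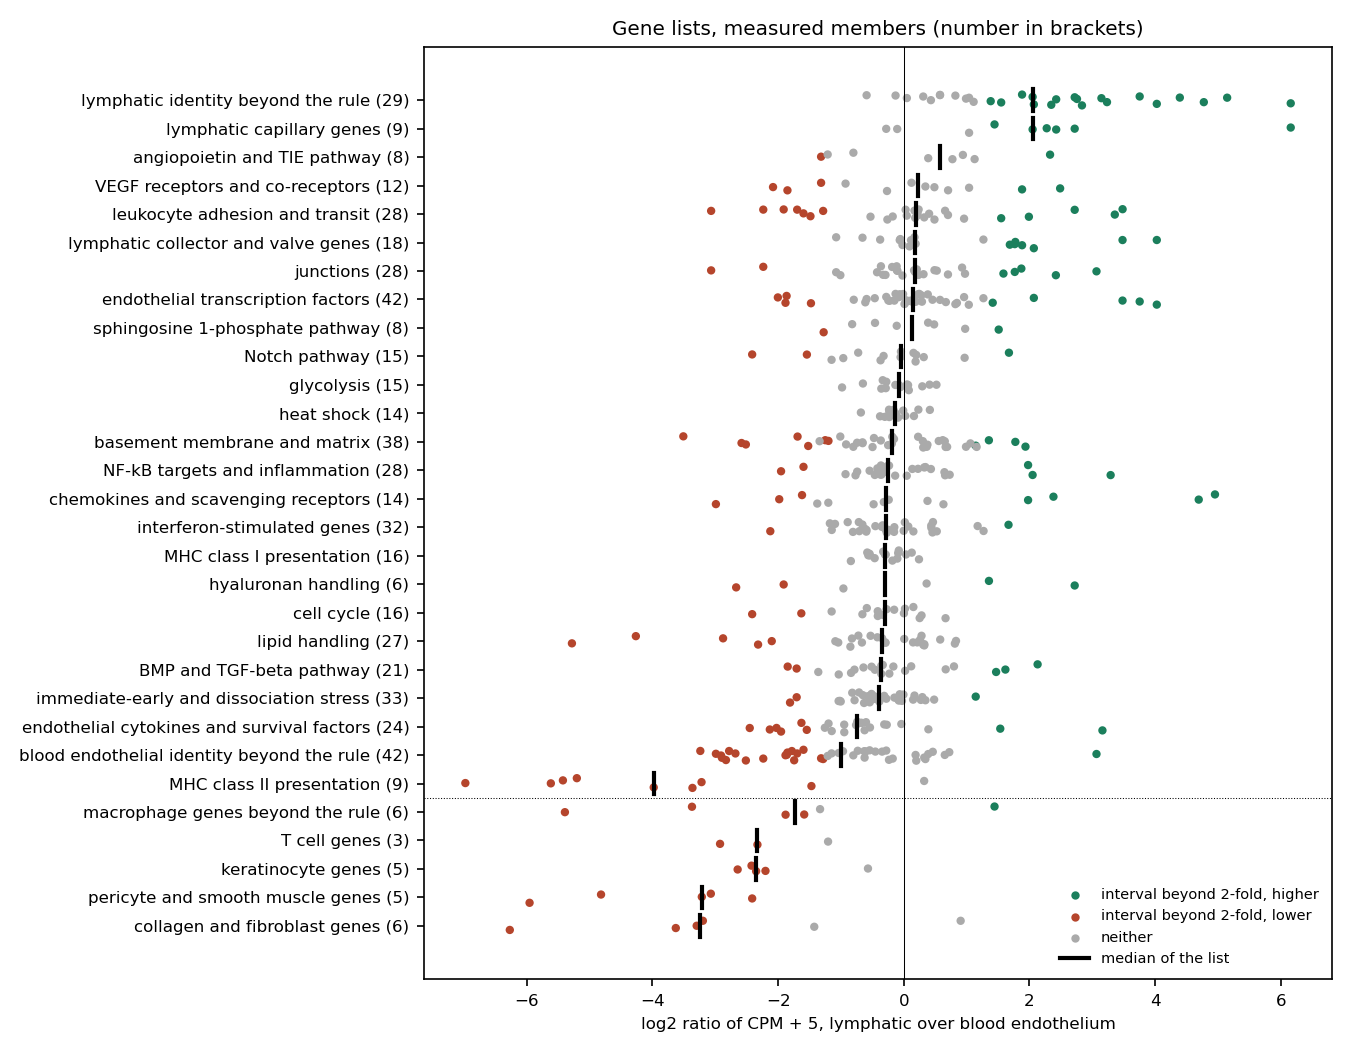
Log2 ratio of CPM + 5 in lymphatic over blood endothelium for each measured gene of 30 lists (points) with the list median (black bar); lists below the dotted line mark other cell types. The lymphatic identity and capillary lists lie to the right at a median of 2.05, and the MHC class II list lies at −3.98.

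Set against every other class of the lesional library, 20 genes were named by the size of their level over the next class. The classes came from marker genes and had 27 to 534 cells. Tc2n was at 74.1 CPM in 44 members, 14.4 times the next class. Gpm6a, which encodes a membrane glycoprotein, was at 236 CPM in 73 members, 10.2 times the next class. Il7 followed at 8.89 times the level of fibroblast-like cells, then Sh3gl3 at 8.69 times and Sema3d at 7.35 times. Cldn5 stood at 6.41 times and Ackr2 at 5.07 times the next class. Itih3, Dmtn, Dtx1, Wipf3, Klhl4, Htr2b, Reep1, Foxp2, Kng2, Pard6g and Galnt18 were at 4.10 to 6.78 times. Mmp13 and Glycam1 rested on 1 cell, which gave 76.2% and 96.5% of their UMIs. For many of these genes the next class was neutrophil-like, and 95.9% of the Ccl21a UMIs of that class of 83 cells lay in 1 cell that also held Ptprc.

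The receptors of factors whose genes were seen in the members were found in leukocytes of the same library, and some of these factors were also seen in other classes. Ccr7, the receptor of CCL21, was at 149 CPM in 16 dendritic cell-like cells and at 29.8 CPM in T cell and ILC-like cells. Il7r, the receptor chain for IL-7, was at 586 CPM in T cell and ILC-like cells and 212 CPM in dendritic cell-like cells. Ccr2, the receptor of CCL2, was at 326 CPM in T cell and ILC-like, 280 CPM in macrophage-like and 234 CPM in dendritic cell-like cells. Ccl2 itself was at 943 CPM in the members, 2138 CPM in mast cell-like and 533 CPM in fibroblast-like cells. Csf3, the granulocyte growth factor, was at 557 CPM in 19 members and 239 CPM in blood endothelium. Of these 19 cells, 7 were members with Flt1, and the 83 without Flt1 stood at 489 CPM, with Csf3 in 12 cells. Csf3 was also at 865 CPM in neutrophil-like cells, 4 of which held it. Its receptor Csf3r was at 619 CPM in neutrophil-like cells. These levels are side by side in 1 library and show no contact between cells.

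**Figure D4:**
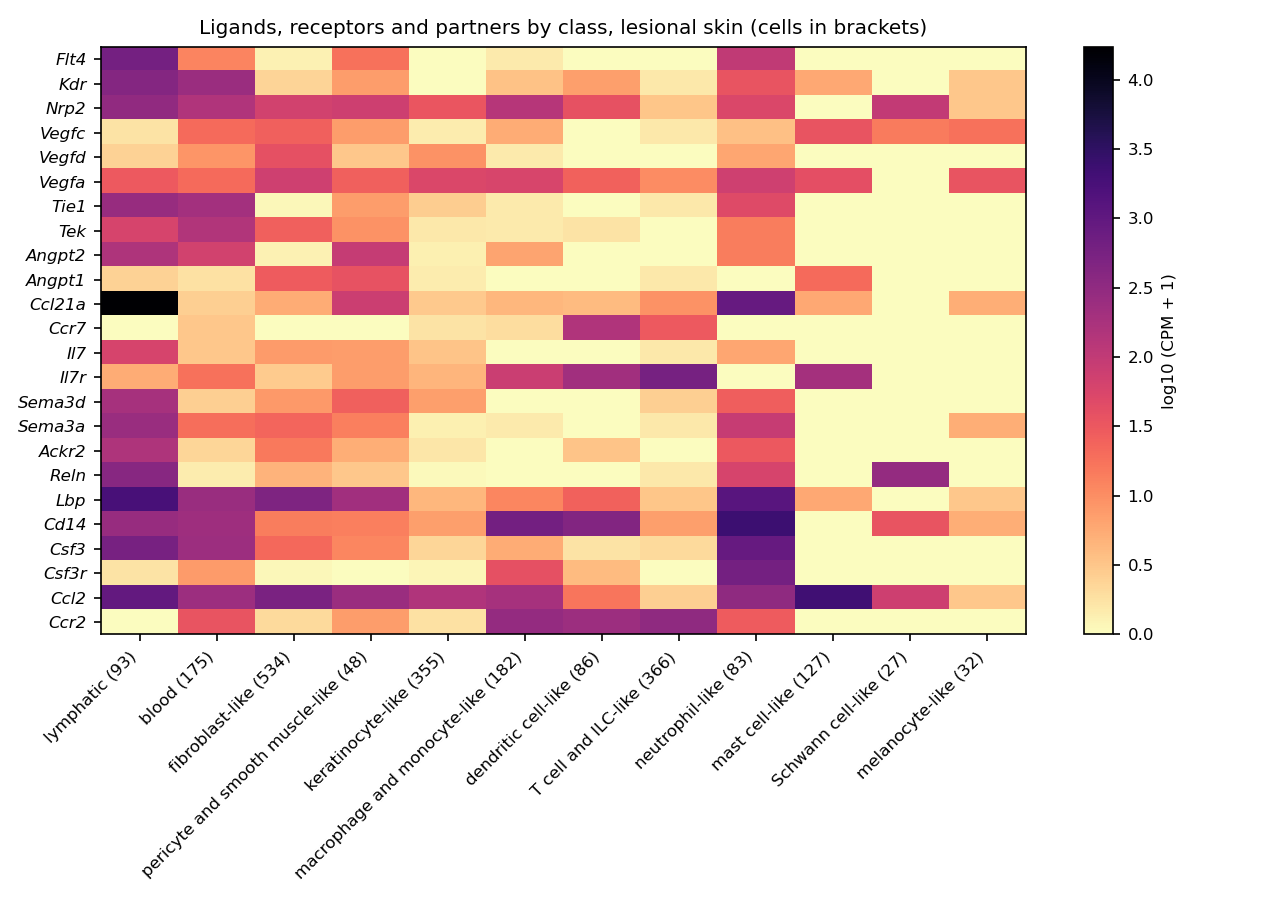
Level of receptor and ligand genes, as log10 of CPM + 1, in lymphatic endothelium (leftmost column) and the other cell classes of lesional skin, with the number of cells in brackets. Ccl21a, Il7, Sema3d, Ackr2 and Reln are darkest in lymphatic endothelium, Ccr7 in dendritic cell-like and Il7r in T cell and ILC-like cells. Reln is nearly as high in Schwann cell-like cells, at 288 CPM against 382 CPM in lymphatic endothelium. The Ccl21a level of the neutrophil-like column rests on 1 cell.

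The 83 members without Flt1 varied widely in Ccl21a. Its share of a cell's UMIs had a lowest, median and highest value of 0%, 1.45% and 11.8%, with 12 cells at 0 and 46 cells over 1%. There was a gap at the low end, since 19 cells had at most 2 Ccl21a UMIs and the next cell had 5. These 19 cells were not shallower as a group, with a median of 12909 UMIs against 10596 in the other 64, although 4 of them had under 5000. The split was made after the values were seen, and what follows is a description. Cells are not replicates, so intervals between the subsets cover counting error only.

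Of 8588 measured genes, 184 (2.14%) were higher in the Ccl21a-low cells than in the Ccl21a-rich cells and 111 (1.29%) were lower, with a median log2 ratio of −0.12. Prox1 was at 462 CPM in Ccl21a-low and 457 CPM in Ccl21a-rich cells, and Cldn5 at 1459 and 1772 CPM, each within 2-fold. Of 29 measured lymphatic identity genes outside the rule, 1 was higher and 8 lower (median −0.70), with Reln, Maf and Nr2f2 among the 8. Of 32 measured blood identity genes, 4 were higher, namely Selp, Sele, Ctla2a and Emcn, and 0 lower (median 0.14). Capillary genes were lower, with 4 of 8 lower and 0 higher (median −2.08). Lyve1 was at 602 CPM in Ccl21a-low and 2264 CPM in Ccl21a-rich cells (3.76-fold lower, 3.18 to 4.48). Reln was at 107 CPM in Ccl21a-low and 582 CPM in Ccl21a-rich cells (5.43-fold lower, 3.66 to 8.40). Mrc1, the mannose receptor gene, was at 0 in Ccl21a-low and 99.8 CPM in 22 Ccl21a-rich cells, at least 8.07-fold lower, with 50% of these UMIs in 1 cell. Of 18 collector and valve genes, 3 were higher and 0 lower (median 0.51). The 3 were Foxp2, Adamts1 and Klf4, and Klf4 is also counted among the higher stress genes below. Foxp2 was at 190 CPM in 13 Ccl21a-low cells and 34.4 CPM in 15 Ccl21a-rich cells (5.50-fold, 3.39 to 9.09). Foxc2, at 94.8 and 54.6 CPM in Ccl21a-low and Ccl21a-rich cells, was within 2-fold.

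Other genes outside the capillary list were also lower in Ccl21a-low cells. Tppp3 was at 4.12 CPM in 1 Ccl21a-low cell and 191 CPM in 39 Ccl21a-rich cells (46.4-fold lower, 8.21 to 1844). Stmn2, encoding a tubulin-binding stathmin, was at 4.12 CPM in 1 Ccl21a-low cell and 162 CPM in 34 Ccl21a-rich cells (39.2-fold lower, 6.92 to 1559). Gpx3, a secreted glutathione peroxidase, was at 16.5 CPM in 2 Ccl21a-low cells and 314 CPM in 33 Ccl21a-rich cells (19.02-fold lower, 7.34 to 70.3).

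Inflammatory genes stood higher in the Ccl21a-low cells by their summed levels. Of 10 measured chemokine genes, 6 were higher and 1, Cxcl13, was lower (median log2 ratio 2.88). Of 27 NF-kB targets, 9 were higher and 1, Ptx3, was lower (median 0.87). Csf3 was at 2073 CPM in 8 Ccl21a-low cells and 32.1 CPM in 4 Ccl21a-rich cells (64.7-fold, 43.9 to 99.1). Cxcl1, a neutrophil chemokine, was at 1793 CPM in 7 Ccl21a-low cells and 41.6 CPM in 9 Ccl21a-rich cells (43.1-fold, 30.5 to 62.7), with 52.6% of the Ccl21a-low UMIs in 1 cell. Ccl2 was at 3644 CPM in 10 Ccl21a-low and 380 CPM in 9 Ccl21a-rich cells (9.59-fold, 8.43 to 10.9). Icam1, an adhesion ligand for leukocytes, was at 1645 CPM in 14 Ccl21a-low cells and 192 CPM in 35 Ccl21a-rich cells (8.55-fold, 7.10 to 10.3). Both sums were uneven over the Ccl21a-low cells. For Ccl2, single cells held 332, 230 and 169 UMIs, and no other held over 56. For Icam1, single cells held 107, 89, 70, 55 and 48 UMIs, and no other held over 10. Lbp was higher too, at 4324 CPM in Ccl21a-low and 1571 CPM in Ccl21a-rich cells (2.75-fold, 2.54 to 2.99).

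Stress genes moved the same way. Of 33 immediate-early and dissociation stress genes, 9 were higher in Ccl21a-low cells and 0 lower (median log2 ratio 0.71), and of 14 heat shock genes 2 were higher (median 0.70). Hmox1, encoding heme oxygenase 1, was at 1904 CPM in 13 Ccl21a-low cells and 108 CPM in 26 Ccl21a-rich cells (17.6-fold, 14.04 to 22.3). Gdf15, a stress cytokine gene, was at 3722 CPM in 11 Ccl21a-low and 191 CPM in 16 Ccl21a-rich cells (19.5-fold, 16.4 to 23.2), with 65.1% of the Ccl21a-low UMIs in 1 cell. The part of tissue dissociation in these differences was not tested. Csf3, Cxcl1, Gdf15, Hmox1 and Neurl3 were higher in Ccl21a-low cells both among cells with Xist and among cells with Y-linked UMIs. The Ccl21a-low cells were only 6 with Xist and 11 with Y-linked UMIs. Of the 6, 1 cell held 18 Csf3 UMIs, another held 1 and the rest held 0, so that call rests mainly on 1 cell. The same cell held 22500 of the 48547 UMIs of the 6 cells. How Cxcl1, Gdf15, Hmox1 and Neurl3 were spread over the 6 cells is not given here.

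**Figure D5:**
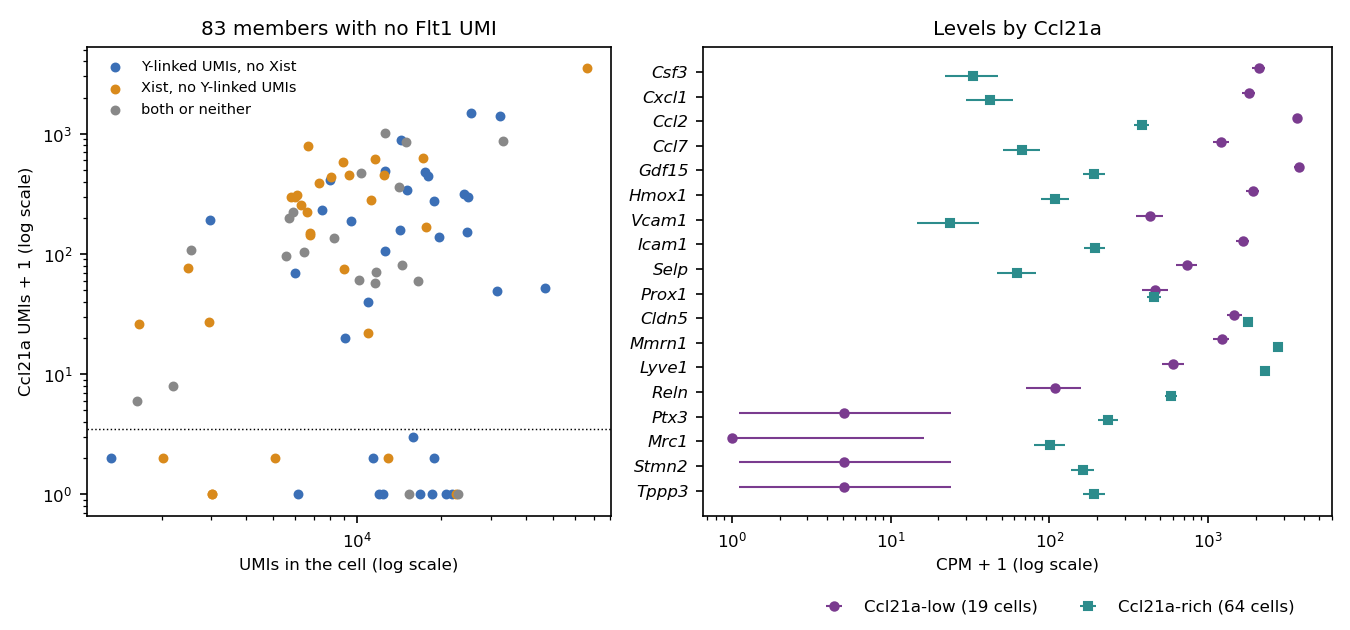
Left, Ccl21a UMIs + 1 against all UMIs of each of the 83 members without Flt1 (log axes), coloured by Xist and Y-linked UMIs, with a dotted line over the 19 cells at 2 UMIs or fewer. Right, levels as CPM + 1 (log axis) in the 19 Ccl21a-low (purple circles) and 64 Ccl21a-rich (teal squares) cells with 95% intervals; Csf3 and Cxcl1 lie far higher and Ptx3 and Tppp3 far lower in Ccl21a-low cells, while Prox1 is level.

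Cells with Y-linked UMIs and cells with Xist, both among the 83 members without Flt1, were also set side by side. Of 7991 measured genes, 86 (1.08%) were higher in the 34 cells with Y-linked UMIs than in the 29 with Xist, and 45 (0.563%) were lower, with a median log2 ratio of 0.05. The depth differed, with a median of 15478 UMIs in the Y-linked cells against 6778 in the Xist cells. Dcn, which encodes the matrix proteoglycan decorin and is a fibroblast marker, was at 3474 CPM in 27 Y-linked cells and 77.6 CPM in 12 Xist cells (44.8-fold, 29.8 to 70.8). In fibroblast-like cells Dcn was at 14330 CPM and Col1a1 at 8567 CPM, while Col1a1 was at 19.6 CPM in the Y-linked cells and 0 in the Xist cells. Car4, a carbonic anhydrase gene, was at 564 CPM in 10 Y-linked cells and 3.37 CPM in 1 Xist cell. Ccl21a was at 14612 CPM in the Y-linked and 34320 CPM in the Xist cells (2.35-fold lower, 2.28 to 2.42). Sex and mouse cannot be told apart here, since no label ties a cell to a mouse.

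Cells rich in Ccl21a in the imiquimod dermis are set beside those of the lesion by Ccl21a alone, a choice made after the values were seen. Over the cells with at least 50 Ccl21a UMIs, 57 in lesional skin and 13 in imiquimod dermis, Lyve1 was at 2448 CPM in lesional and 2379 CPM in imiquimod cells. Cldn5 was at 1850 CPM in lesional and 1915 CPM in imiquimod cells. Both genes were thus level in the 2 libraries. Mmrn1 was at 2780 CPM in lesional and 1092 CPM in imiquimod cells, and Prox1 at 477 and 127 CPM. Lcn2 was at 998 CPM in lesional and 2581 CPM in imiquimod cells. S100a8, a neutrophil and keratinocyte alarmin, was at 658 CPM in lesional and 20845 CPM in imiquimod cells, in all 13 of them. Its part in the other differences was not tested.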

How the data were processed

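The 5 libraries were made from enzyme-digested skin after dead cells had been sorted out, per the labels' protocols, and sequenced as Chromium 3′ libraries. The authors ran CASAVA and Cell Ranger against mm10, per the submitters' processing notes, and version 3.0.2 stands in the matrix headers. The authors deposited raw UMI counts for 31053 genes per barcode. The step that called cells is not named in the labels. Genes were looked up by symbol, and 0 columns of other samples were present. The members and lists were chosen with earlier results of these data known.

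Counts were summed over the cells of a group and scaled to CPM with numpy 2.4.6 and scipy 1.17.1 (Python 3.11.15, pandas 2.3.3, matplotlib 3.10.9). Levels have exact Poisson 95% intervals, shares exact binomial (Clopper-Pearson) intervals, and ratios exact conditional binomial intervals. They cover counting error only, and with 1 library per group no test was run. Where 1 group was at 0, the fold is a bound against 3 counts over that group. The 13 genes of the rules were left out of counts and medians of genes, but not of the sets of promoter windows. Named genes needed at least 50 CPM, a ratio interval past 2-fold on one side, and a CPM that no class of 20 or more cells exceeded over 10 times. Mitochondrial, ribosomal, haemoglobin and predicted genes, Xist and Y-linked genes stayed out. The 15 highest and 15 lowest were named, with the 20 genes of the largest level over the next class. Members of the 30 lists may be named besides. Other cells were classed by a marker score of at least 0.5 with at least 3 markers. Genes named between Ccl21a-low and Ccl21a-rich cells, between Y-linked and Xist cells, and in imiquimod cells were chosen with their values in view. Doublets were kept, and their removal with Scrublet (scanpy 1.11.5) is an alternative. Promoter windows and gene positions are those of RefSeq (GRCm38.p6) and GENCODE vM21.

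Tested on simulated counts of lymphatic over blood endothelium (8788 genes), the call found 44.6% of 101 genes changed 2.5-fold, 99.0% of 99 changed 5-fold and 0% of 8588 unchanged genes. The call rests on an interval for counting error only, so the 0% gives no error rate under variation between cells or libraries. In the real counts, some calls, such as those of Cxcl13, Cck and Mucl1, were lost without the cell with the most UMIs of the gene.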

Additional observations from a re-analysis of the deposited data

Results flagged for a closer look

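A signal appeared in cells that the comparisons leave out. In the imiquimod dermis, 12 of 4991 kept cells had at least 50 Ccl21a UMIs and lay outside the rule for lymphatic endothelial cells. The untreated dermis had 0 such cells of 521, where 3 counts would be a share of 0.576%, so no excess over the untreated dermis is shown. The lesional skin and the untreated epidermis each had 1 such cell. The limits on C1q and Ptprc that left out the imiquimod cells, and the levels of their genes, are given in the results, and the cause of the C1q UMIs was not tested. No group had 4 or more libraries, so no library was examined for standing apart from its group.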

How the results depend on the processing

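The results were recomputed under 22 alternatives, 15 of them planned and 7 added after the data were seen. The number of members was 97 with all barcodes kept, and 83 to 97 under the other settings. Genes higher in lymphatic endothelium numbered 245 to 549 over the planned settings, with 549 at an interval beyond 1.5-fold. Genes lower numbered 299 with cells thinned to 5000 UMIs, 300 at a minimum of 30 UMIs and 30 CPM, and 312 with other cell types limited in both gates. The highest planned number of lower genes was 704.

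List medians turned in 4 cases. The angiopoietin and TIE list stood at −0.69 in Xist cells, the collagen and fibroblast list at 0.15 with other cell types limited, and the macrophage list at 1.27 with the blood gate held to the Ptprc and C1q limits and at 1.51 with Flt1 cells also left out. Glycam1 turned to −3.88 in Xist cells and to −2.00 without its top cell. Of 966 values of 45 named genes, 955 kept their direction and their call, 9 lost the call and 2 reversed. Settings in which a gene was no longer measured gave no value and are not among the 966. Some settings could not remove a call. The pseudocount does not enter the interval, and the limit of 1.5-fold is looser than 2-fold. Leaving Ccl21a out of the lymphatic UMIs returned 93 members and 175 blood endothelial cells, as in the main setting. Without the top cell of each group, Cxcl13 stood at 0.45 and Mucl1 at −0.12 on the log2 scale, and no Cck UMI was left. Of 619 list values, 558 were within their limits, 57 moved and 4 reversed.

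Removing 63 barcodes with the highest doublet scores took out 2 members and 5 blood endothelial cells. Genes under 10 UMIs over both groups cannot be judged at this depth. No paired analysis was possible because each group has 1 library. Alternatives for the lesional against the imiquimod cells were not run, since the rule left 2 cells in the imiquimod dermis.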

Other observations

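Some genes followed in lymphatic endothelium were not described above. Clca3a1, a calcium-activated chloride channel regulator gene, was at 365 CPM in 58 members and 31.0 CPM in 32 blood endothelial cells (11.8-fold, 9.19 to 15.2). Nts, the neurotensin gene, was at 470 CPM in 52 members and 48.6 CPM in 5 blood endothelial cells (9.66-fold, 7.92 to 11.9). It was higher in Ccl21a-low cells, at 1290 CPM, than in Ccl21a-rich cells, at 374 CPM (3.45-fold, 2.94 to 4.05). Cp, encoding the copper-binding ceruloplasmin, was at 689 CPM in 84 members and 68.7 CPM in 48 blood endothelial cells (10.0-fold, 8.48 to 11.9). Timp3, an inhibitor of metalloproteinases, was at 1499 CPM in lymphatic and 388 CPM in blood endothelium (3.87-fold, 3.58 to 4.18), as 1 of the 4 higher matrix genes of 38, with 7 lower. Sparcl1, a matricellular gene, was the lowest of these 7, at 40.0 CPM in lymphatic and 507 CPM in blood endothelium (12.7-fold lower, 9.65 to 17.0). The proliferation gene Mki67 was at 4.45 CPM in lymphatic and 15.9 CPM in blood endothelium.

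With every cell thinned to 5000 UMIs, which left 82 members and 138 blood endothelial cells, Mmrn1 was seen in 85.4% of members, Flt4 in 82.9%, Maf in 79.3%, Lyve1 in 76.8%, Fgl2 in 75.6%, Prox1 in 74.4%, Ccl21a in 73.2%, Pdpn in 68.3% and Reln in 65.9%. In blood endothelium, Reln, which no rule used, was seen in 0.725% of cells. Prox1 and Mmrn1 were also each seen there in 0.725%, Lyve1 in 1.45% and Ccl21a in 0%, but these genes chose the groups and their shares are only a description. Flt1 was seen in 10.98% of members and 86.2% of blood endothelial cells.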
